A study of Mus musculus with 8 samples.

Results

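The 10 genes described here were Yap1, Wwtr1, Tead1, Lats2, Amotl2, Ctgf, Cyr61, Nov, Wisp1 and Wisp2, which hold transcriptional effectors and feedback regulators of the Hippo pathway together with 5 genes of the CCN family of secreted proteins. They were taken by symbol from the gene-level read counts, and each of the 10 was found among 23284 gene symbols. The counts came from polyadenylated RNA of the murine ovarian surface epithelial line ID8 IP2, a subline of ID8 obtained by passage in mice. Control cells (n = 4) were infected with lentivirus from the empty pCCL vector, and Notch3IC cells (n = 4) with pCCL encoding the HA-tagged intracellular domain of Notch3 followed by IRES-GFP. The intracellular domain is the part of the receptor that acts in the nucleus and serves as an always-active form of it. The lines came as matched Sets 1 to 4, each 1 independent infection with its own Control. Every line, Control included, also carried a luciferase-mCherry lentivirus, and by the methods, later testing pointed to mycoplasma in the ID8 IP2 lines. The comparison asked how the mRNA of these genes differed between cells with and without the domain. Library totals were 19013578 to 28208072 counts in Control (median 24255880), and those of Notch3IC were 15524262 to 27107061 (median 24162245.5).

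In the Hippo pathway, the kinases Stk3 and Stk4 (Mst) activate Lats1 and Lats2, which phosphorylate the coactivators Yap1 and Wwtr1 (Taz) and keep them out of the nucleus. Unphosphorylated Yap1 and Wwtr1 bind Tead transcription factors and raise genes such as Ctgf, Cyr61, Ankrd1 and, as negative feedback, Lats2 and Amotl2. The CCN proteins are secreted, cysteine-rich matricellular proteins that bind integrins, proteoglycans and growth factors. Ctgf and Cyr61 are the most used readouts of Yap and Taz activity, and Wisp2 differs in build from the rest of its family in that it lacks the carboxy-terminal cystine-knot domain. mRNA levels do not show the phosphorylation or the place of Yap1 and Wwtr1 in the cell.

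The promoters were examined for the letters GGAATG, which read on the opposite strand are CATTCC, the core bound by Tead factors, because Yap1 and Wwtr1 reach DNA through them. The RefSeq promoter table (GRCm38.p6, 250 bases before to 50 after each start) held windows for 5 of the 10 genes, namely Yap1, Wwtr1, Lats2, Amotl2 and Cyr61, and each of these 5 genes held the letters, on either strand, in 1 or more of its windows. By window these were 6 of 7, since Wwtr1 and Lats2 each have a second start. The windows of Wwtr1 overlap and share 1 match, and the second of Lats2 lacks the letters. Over all the windows listed, 16.6% of genes and 14.7% of windows held them, and of the 22 Yap and Taz target genes listed, 15 had a window and 7 of these (46.7%) held them. The letters TGGGAA, or on the opposite strand TTCCCA, the core of the site bound by the Notch effector Rbpj, were in 0 of the 7 windows of these 5 genes, beside 28.3% of all genes and 25.6% of all windows. The strings share 4 letters and can overlap at a site, and a match is a run of letters only. The 250 bases before the outermost start are shown for both coactivators and for Cyr61, the most abundant CCN gene in Control per kilobase of exon. The sequences are read 5′ to 3′ on the gene's strand, with the Tead letters in capitals. They lie at chr9:8004597-8004846 (minus strand, Yap1), chr3:57575911-57576160 (minus strand, Wwtr1) and chr3:145649986-145650235 (minus strand, Cyr61), and the match begins 141, 136 and 103 bases before the start respectively.
Yap1: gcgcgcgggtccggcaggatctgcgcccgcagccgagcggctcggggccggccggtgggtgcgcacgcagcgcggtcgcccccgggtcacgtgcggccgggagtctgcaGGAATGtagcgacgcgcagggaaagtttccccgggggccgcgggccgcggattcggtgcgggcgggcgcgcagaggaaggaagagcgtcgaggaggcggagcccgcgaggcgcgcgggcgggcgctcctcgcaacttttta
Wwtr1: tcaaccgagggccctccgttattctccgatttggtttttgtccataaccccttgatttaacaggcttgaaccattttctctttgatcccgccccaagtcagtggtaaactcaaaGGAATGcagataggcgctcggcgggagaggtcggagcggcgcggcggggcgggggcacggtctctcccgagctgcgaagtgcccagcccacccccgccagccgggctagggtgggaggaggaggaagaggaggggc
Cyr61: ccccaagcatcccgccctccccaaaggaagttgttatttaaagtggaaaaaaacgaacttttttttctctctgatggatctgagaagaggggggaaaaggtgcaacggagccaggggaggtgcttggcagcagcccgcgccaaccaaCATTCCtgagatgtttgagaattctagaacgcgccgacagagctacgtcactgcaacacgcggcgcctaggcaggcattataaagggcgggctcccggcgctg

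The label check came first. Notch3 read 38.6, 40.6, 70.8 and 42.0 normalized counts in Control Sets 1 to 4 and 4319, 467, 9215 and 5839 in Notch3IC Sets 1 to 4 (log2 fold change 6.69 ± 0.88 SE, adjusted p = 0.0169). Normalized counts are counts scaled to library size with TMM factors, so they compare 1 gene between libraries. Unless another tool is named, fold changes and adjusted p are from edgeR's quasi-likelihood test with Benjamini-Hochberg adjustment over 12430 genes tested. Hey1, Heyl and Nrarp, direct Notch targets, were called higher too, and Set 2 had the lowest Notch3, Hey1, Heyl and Nrarp of the Notch3IC libraries.

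Across all genes tested, 423 (3.40%) were called higher in Notch3IC and 92 (0.740%) lower, together 4.14%. A gene was called where its adjusted p was under 0.1 and its log2 fold change was 1 or more in size. Over the whole table the median stood at -0.01 (log2). With the set number as a block the counts were 645 and 315. With 1 library left out they ran from 75 to 702 higher and from 8 to 305 lower. Without both libraries of Set 3 they were 1 and 0, and without those of Set 4 0 and 0. Of the 10 genes described here, all 10 of which passed the expression filter, 2 were called higher, Wisp2 and Nov, and 0 lower, and none of the other members had an unadjusted p under 0.05. DESeq2 called the same 2 and gave Ctgf a log2 fold change of 0.91 with no p. The median log2 fold change of the 10 was 0.17. In the same 2 genes the Control and Notch3IC libraries did not overlap, which held for 7.08% of all genes tested in the direction of higher values, for 3.75% in that of lower values and for 10.8% in either.

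**Figure D1:**
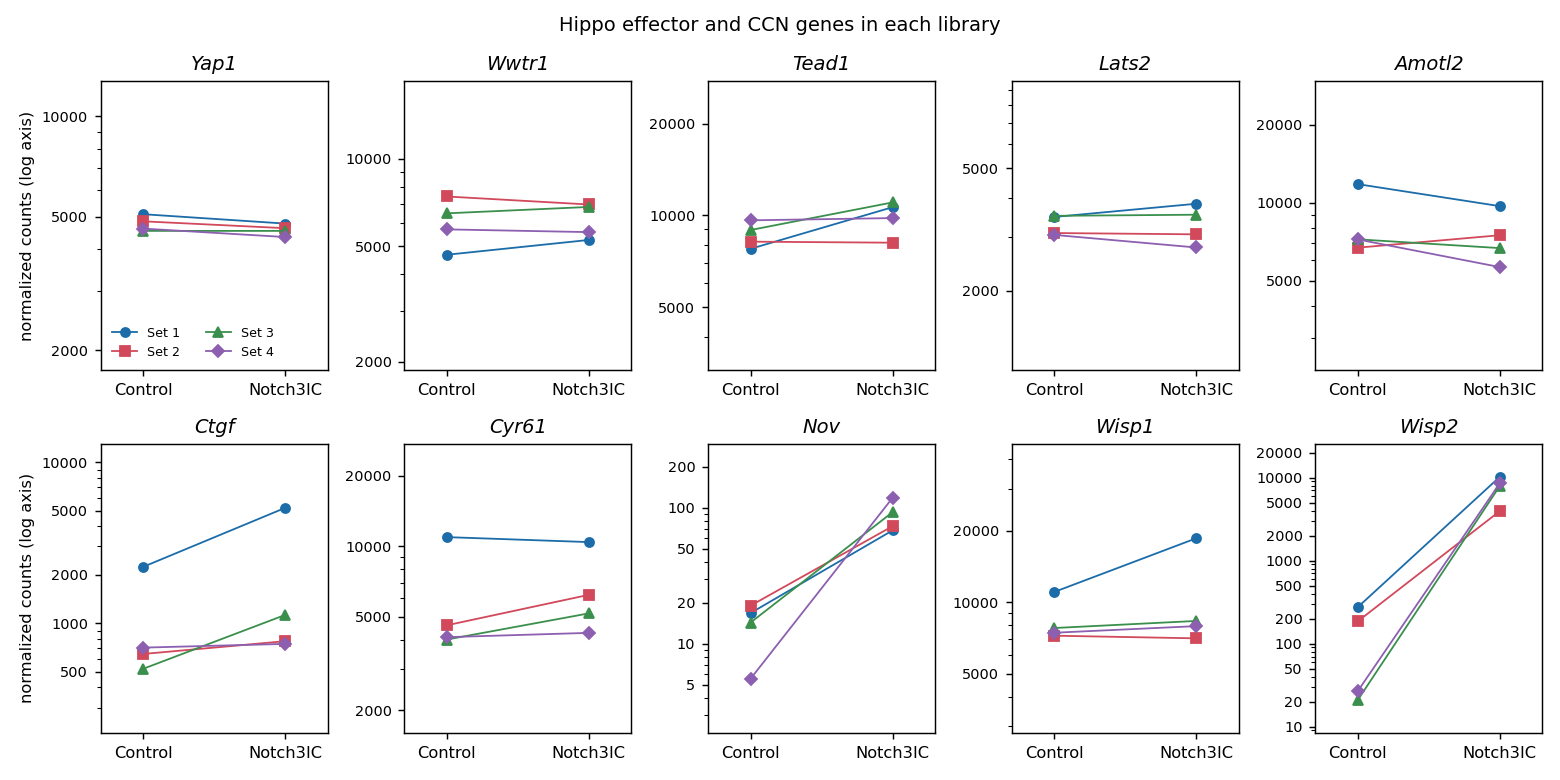
Normalized counts of the 10 genes (log axis, its range differing between panels) in Control and Notch3IC libraries, with a line joining the 2 libraries of each matched set. Wisp2 and Nov are higher in Notch3IC in each of the 4 sets with no overlap, Set 1 is above the other sets for Ctgf, Cyr61, Amotl2 and Wisp1, and Yap1, Wwtr1, Tead1 and Lats2 overlap between conditions.

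The coactivator Yap1 (chr9:7931999-8004596, minus strand, GRCm38) had 5097, 4853, 4544 and 4616 normalized counts in Control Sets 1 to 4 and 4778, 4629, 4544 and 4356 in Notch3IC. The groups overlapped and lay close together. The log2 fold change was -0.06 ± 0.08 (95% interval -0.24 to 0.12, adjusted p = 0.743), an interval inside the fold-change limit on both sides. Wwtr1 (chr3:57455649-57575910, minus strand), which encodes Taz, had 4676, 7425, 6496 and 5719 in Control and 5259, 6968, 6834 and 5596 in Notch3IC. Set 1 was the lowest set and Set 2 the highest in both conditions, and the log2 fold change was 0.02 ± 0.16 (-0.35 to 0.39, adjusted p = 0.969). Per kilobase of exon, Wwtr1 made up 70.7% ± 4.80 (SD, n = 4) of the sum of both coactivators in Control and 72.1% ± 3.05 in Notch3IC, and Yap1 made up the rest.

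Tead1 (chr7:112679318-112906807, plus strand), a DNA-binding partner of both, had 7774, 8206, 8959.5 and 9639 normalized counts in Control and 10643, 8142, 11034 and 9804 in Notch3IC. Sets 1 and 3 were higher with Notch3IC by log2 ratios of 0.45 and 0.30, whereas Sets 2 and 4 differed by -0.01 and 0.02. The groups overlapped, and the log2 fold change was 0.20 ± 0.12 (-0.09 to 0.48, adjusted p = 0.457).

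Of the feedback regulators, the kinase gene Lats2 (chr14:57689662-57758388, minus strand) had 3476, 3083, 3506 and 3040.3 normalized counts in Control and 3836, 3053, 3535 and 2768 in Notch3IC. The ranges overlapped, with a log2 fold change of 0.01 ± 0.12 (-0.26 to 0.28, adjusted p = 0.979), and its sign turned under other scalings. Another annotated gene on the same strand, Gm49361, covers 42.4% of the exon bases of Lats2, so its reads may be divided between them. Amotl2 (chr9:102716672-102733418, plus strand), a scaffold that binds Yap1, had 11815, 6719, 7236 and 7226 in Control and 9718, 7505, 6694 and 5655 in Notch3IC. The Set 1 library was the highest of each condition, and the log2 fold change was -0.16 ± 0.23 (-0.68 to 0.36, adjusted p = 0.778). Without Control Set 1 it was 0.07.

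Wisp2 (chr2:163820861-163833146, plus strand; Ccn5 in current annotation) showed the largest difference among the 10 genes. It had 275, 186, 21.05 and 26.9 normalized counts in Control Sets 1 to 4 and 10206, 3951, 7932 and 8544 in Notch3IC Sets 1 to 4. Every Notch3IC library was above every Control library, and the lowest Notch3IC value, in Set 2, belonged to the library with the lowest Notch3. Over Notch3IC Sets 1, 3 and 4 Wisp2 did not follow Notch3, which was 4319, 9215 and 5839 there: Set 3 had the most Notch3 and the least Wisp2 of these. Control differed within itself as well: Sets 1 and 2 were far above Sets 3 and 4. Within sets the log2 ratios were 5.21, 4.40, 8.52 and 8.28. The log2 fold change was 5.93 ± 0.87 (3.94 to 7.91, adjusted p = 0.0187), a 60.8-fold higher level. The raw counts behind the lowest Control libraries were 22 and 34 in Sets 3 and 4. Leaving out any 1 library kept the call (log2 fold change 5.56 to 6.67, adjusted p 0.00564 to 0.0854). Leaving out both libraries of Set 3 or of Set 4 ended it, with adjusted p = 0.215 at 5.55 and 0.221 at 5.52 respectively.

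Nov (chr15:54745702-54754039, plus strand; Ccn3), a CCN protein known to bind Notch receptors, was called higher from a low level. Control Sets 1 to 4 had 16.8, 19.1, 14.3 and 5.55 normalized counts and Notch3IC Sets 1 to 4 had 68.2, 73.2, 92.8 and 118. The groups did not overlap, and the ratio was widest in Set 4 (log2 ratio 4.30, against 1.91 to 2.65 in Sets 1 to 3). The log2 fold change was 2.67 ± 0.39 (1.79 to 3.55, adjusted p = 0.0182), a 6.37-fold higher level, resting on raw counts of 7 to 17 per Control library and 50 to 140 per Notch3IC library. The call held with any 1 library left out (2.39 to 2.85, adjusted p 0.00654 to 0.0882). It was lost without both libraries of Set 3 (2.66, adjusted p = 0.235) or of Set 4 (2.22, adjusted p = 0.218), and Nov was not tested where at least 10 counts were asked in every library.

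Ctgf (chr10:24595442-24598683, plus strand; Ccn2) had 2242, 645, 522 and 707 normalized counts in Control and 5207, 775, 1128 and 746 in Notch3IC. It was higher with Notch3IC in 4 of 4 sets, by log2 ratios of 1.22 and 1.11 in Sets 1 and 3 and of 0.26 and 0.08 in Sets 2 and 4. Set 1 stood above the other sets in both conditions, the groups overlapped, and the log2 fold change was 0.93 ± 0.75 (-0.77 to 2.63, adjusted p = 0.567). With the set number as a block it was 0.68 ± 0.22 (adjusted p = 0.0941), under the fold-change limit. With no block, it was -0.21 without Notch3IC Set 1, 1.65 without Control Set 1 and 0.50 without both, each with adjusted p = 0.212 or more. The gene Gm15270, on the opposite strand, overlaps 23.2% of the exon bases of Ctgf, and whether the counting used strand is not given in the sources used here.

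Cyr61 (chr3:145646976-145649981, minus strand; Ccn1) had 10926, 4601, 4000.5 and 4095 normalized counts in Control and 10406, 6203, 5171 and 4271 in Notch3IC. Set 1 was again the highest, the other sets were higher with Notch3IC by log2 ratios of 0.06 to 0.43, and the log2 fold change was 0.14 ± 0.40 (-0.76 to 1.05, adjusted p = 0.900). Wisp1 (chr15:66891320-66923201, plus strand; Ccn4), known as a Wnt-induced gene, had 11043, 7230.1, 7788 and 7440.2 in Control and 18575, 7047, 8341 and 7932 in Notch3IC. Only Set 1 moved by more than 0.10 in size on the log2 scale (0.75), and the log2 fold change was 0.32 ± 0.32 (-0.40 to 1.05, adjusted p = 0.658). Cyr61 stood at -0.17 without Notch3IC Set 1, at 0.62 without Control Set 1 and at 0.30 without both, and Wisp1 at -0.10, 0.48 and 0.05. Wisp3, the family member outside the 10 genes, had 2.87 to 9.51 normalized counts per library and was not tested.

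The 6 CCN genes together differed in makeup between the conditions. Levels of different genes were compared as normalized counts per kilobase of exon, and the sum of the family was 4865 ± 2316 in Control and 9810 ± 3979 in Notch3IC (mean ± SD, n = 4). Wisp2 made up 1.72%, 2.47%, 0.31% and 0.39% of it in Control Sets 1 to 4, and 33.9%, 30.7%, 47.9% and 53.6% in Notch3IC Sets 1 to 4. It was a trace member of the family in Control and the most abundant one in Notch3IC Sets 1, 3 and 4, while Cyr61 remained the most abundant in Set 2. Cyr61 made up 58.6% ± 4.43 in Control and 33.5% ± 8.79 in Notch3IC, and Wisp1 33.2% ± 6.72 and 18.7% ± 1.91, although neither gene's own level was called. Ctgf made up 6.77% ± 1.89 and 5.85% ± 3.90, and Nov under 1% in every library. On counts with no length scaling the mean share of Wisp2 in Notch3IC was 29.8%, and Wisp1 had the largest mean share in both conditions (56.4% and 38.6%), although in Notch3IC Set 4 Wisp2 (39.5%) stood above Wisp1 (36.7%).

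**Figure D2:**
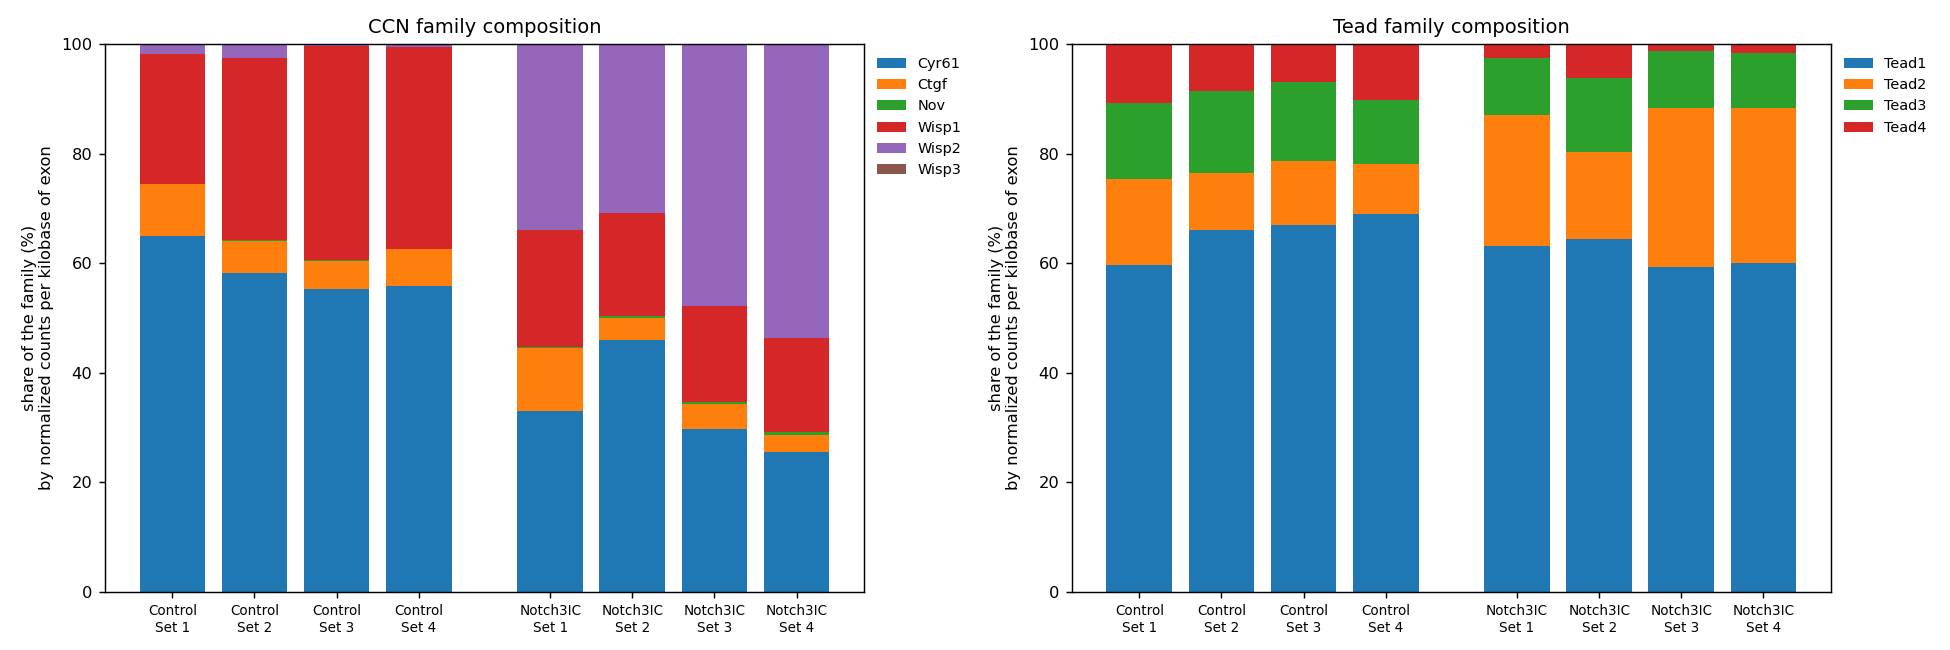
Share (%) of each gene in the summed normalized counts per kilobase of exon of the CCN family (left) and the Tead family (right), 1 bar per library. Wisp2 takes 30.7% to 53.6% of the CCN family in Notch3IC against 2.47% or less in Control, and Tead2 widens and Tead4 narrows in each of the 4 Notch3IC libraries beside the Control of its set.

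Per kilobase, the order of the 10 genes in Control was Cyr61 (2925 ± 1663), Wisp1 (1505 ± 322), Amotl2 (1312 ± 380.0), Wwtr1 (1272 ± 244), Tead1 (637 ± 60.7), Yap1 (516 ± 27.1), Lats2 (470.0 ± 35.7), Ctgf (359.7 ± 284), Wisp2 (66.2 ± 64.9) and Nov (4.87 ± 2.07). The ranges of mean ± SD overlapped between neighbours in this order, except between Wwtr1 and Tead1 and between Tead1 and Yap1. In Notch3IC, Wisp2 stood first at 3980.5 ± 1378, followed by Cyr61 at 3226 ± 1344, with overlapping ranges of mean ± SD. The order of the other genes above Ctgf (686 ± 758) had Wisp1 at 1882 ± 975, Wwtr1 at 1289.9 ± 181, Amotl2 at 1176 ± 274 and Tead1 at 730.0 ± 94.5. Below Ctgf stood Yap1 at 494 ± 19.0 and Lats2 at 473 ± 68.6, and Nov stayed last at 30.7 ± 7.91. Here neighbours overlapped except between Amotl2 and Tead1 and between Lats2 and Nov.

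Among the other Tead genes, Tead2 had 720.4, 449.8, 554 and 456 normalized counts in Control and 1434, 707, 1902 and 1629 in Notch3IC. It was higher in 4 of 4 sets although the value of Notch3IC Set 2 lay below that of Control Set 1, and it was called higher (log2 fold change 1.38 ± 0.30, adjusted p = 0.0451). Tead4 had 372, 280.4, 244 and 380.3 in Control and 116, 208, 66.2 and 74.3 in Notch3IC. The groups did not overlap, and it was called lower (-1.47 ± 0.37, adjusted p = 0.0705). Tead3 was -0.05 ± 0.09 (adjusted p = 0.835). As shares of the Tead family per kilobase, Tead2 was 11.7% ± 2.83 in Control and 24.3% ± 6.01 in Notch3IC, Tead4 was 9.10% ± 1.77 and 2.97% ± 2.23, and Tead1 remained the largest at 65.4% ± 3.97 and 61.7% ± 2.45. Of the Vgll cofactors that compete for Tead, Vgll3 was -0.23 ± 0.45 (adjusted p = 0.846) and Vgll4 0.43 ± 0.17 (adjusted p = 0.229). Vgll1 had 0 counts in each library, and Vgll2, at 2.24 to 11.5 normalized counts, was not tested. The calls of the Tead genes were less steady than those of Wisp2 and Nov: that of Tead2 was lost without Control Set 3, Notch3IC Set 3, Control Set 4 or Notch3IC Set 4, and that of Tead4 without any 1 library other than Notch3IC Set 2, with adjusted p up to 0.153 and 0.207.

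The remaining pathway genes were read from lists of 88 distinct genes, the 10 included, of which 8 were called higher and 1 lower. These were Wisp2, Nov, Itgb3, Rbms3, Fat4, Tgfb2, Itgb5 and Tead2 higher and Tead4 lower. With the set number as a block the counts were 13 and 3, the genes added being Acta2, Actg2, Cnn1, Tagln and Fjx1 higher and Dock5 and Itgb2 lower. Of the kinase cassette (Stk3, Stk4, Sav1, Lats1, Lats2, Mob1a, Mob1b), 7 of 7 were tested and none was called by edgeR, with 2 at an unadjusted p under 0.05 (18.4% of all genes tested reached this), and the median log2 fold change was -0.01. Those 2 were Sav1, the scaffold of the Mst kinases (0.27 ± 0.08, adjusted p = 0.111), and Stk4 (-0.27 ± 0.09, adjusted p = 0.141). For both, the libraries did not overlap between the groups, which held for 10.8% of all genes tested. Mob1a, the most abundant of the 7 per kilobase, was at -0.01 ± 0.11.

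Of 20 upstream regulators, 19 were tested and 1 was called higher, the large atypical cadherin Fat4, with a list median of 0.12, and 7 had an unadjusted p under 0.05. Fat4 had 43.6, 89.5, 49.7 and 46.0 normalized counts in Control and 226, 163, 152 and 269 in Notch3IC (1.83 ± 0.30, adjusted p = 0.0247). Its ligand gene Dchs1 was at 0.844 normalized counts or less in each library. The kinase gene Taok3 passed the adjusted p but not the fold-change limit (0.78 ± 0.20, adjusted p = 0.0719). Map4k4, the most abundant of the list per kilobase, was at 0.09 ± 0.11.

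Of 22 Yap and Taz target genes, 22 were tested, 2 were called higher and 0 lower, 9 had an unadjusted p under 0.05, and 13 of 22 had a positive log2 fold change (median 0.16). DESeq2 called Fjx1 higher and Dock5 lower besides. The 2 were Rbms3, an RNA-binding protein gene, and Tgfb2, a TGF-beta ligand gene. Rbms3 had 96.1, 124, 91.8 and 49.9 normalized counts in Control and 419, 224, 296 and 402 in Notch3IC (1.90 ± 0.31, adjusted p = 0.0247). Tgfb2 had 772, 1433, 948 and 859.7 in Control and 5099, 1959, 3079 and 2695 in Notch3IC (1.68 ± 0.31, adjusted p = 0.0316). Both were higher in 4 of 4 sets with no overlap. Ankrd1, which with Ctgf and Cyr61 is among the most used Yap and Taz readouts, had 3146, 626, 1016 and 1339.9 in Control and 4537, 971, 1562 and 990.4 in Notch3IC (0.39 ± 0.63, -1.04 to 1.83, adjusted p = 0.804). Myof (0.76 ± 0.19, adjusted p = 0.0661) and Nt5e (-0.55 ± 0.12, adjusted p = 0.0464) passed the adjusted p below the fold-change limit, in opposite directions. Ctgf, Cyr61, Amotl2 and Lats2 belong to this list too. Myof, Nt5e, Taok3, Sav1, Stk4, Ankrd1, Dchs1, Fjx1, Dock5 and Tagln were named after their values were seen.

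**Figure D3:**
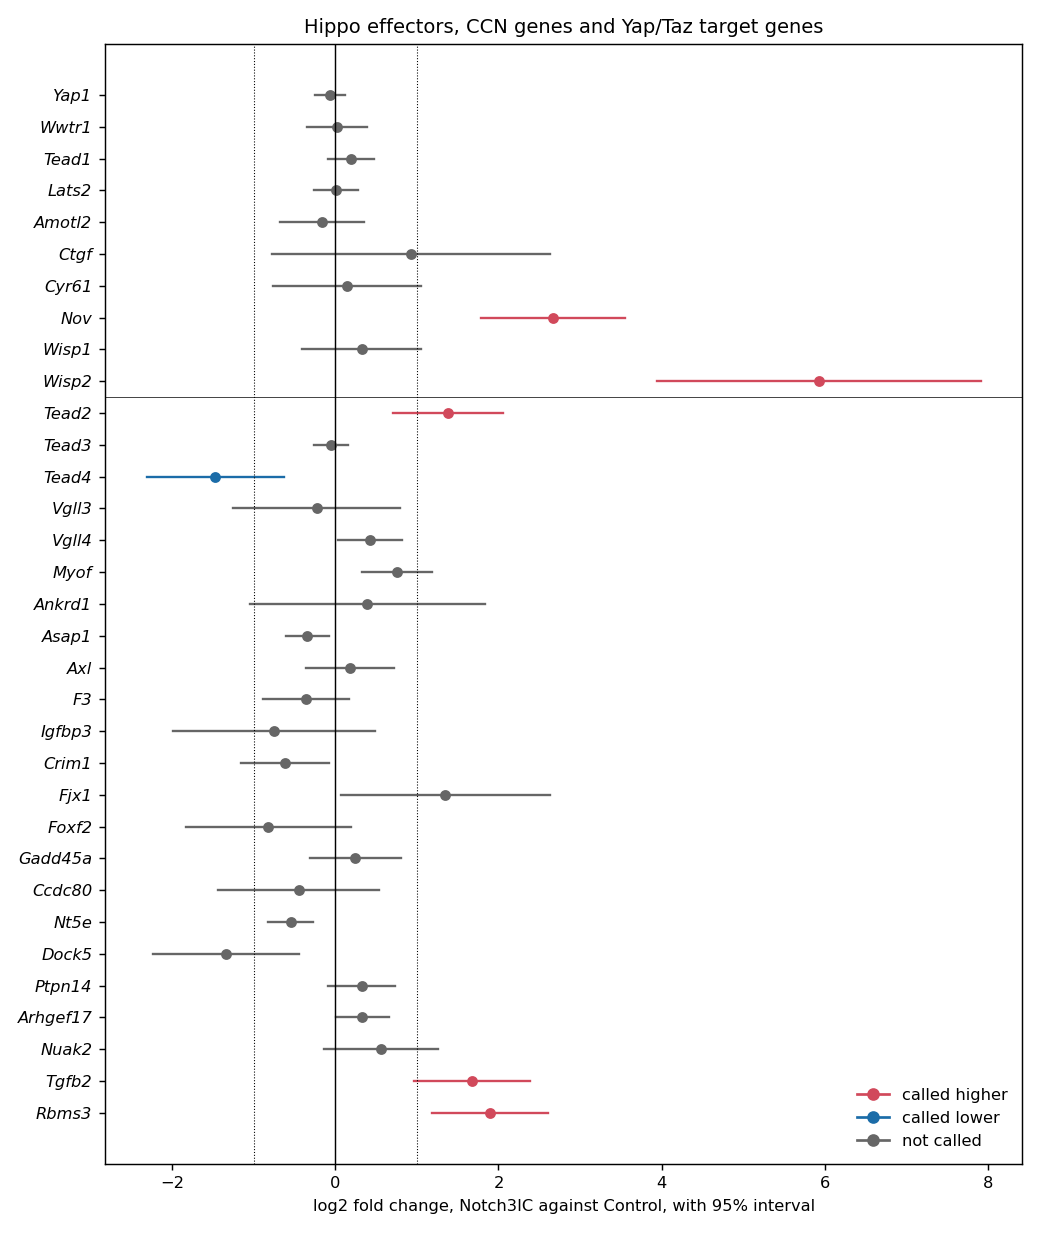
log2 fold change of Notch3IC against Control with its 95% interval (edgeR, n = 4 per condition) for the 10 genes (above the line) and for the other Tead, Vgll and Yap and Taz target genes that were tested. Dotted lines mark the fold-change limit of 1 in size. Wisp2 (5.93) and Nov (2.67) lie far to the right, Tead4 (-1.47) is the called gene on the left, and most other points sit within 1 of 0.

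CCN proteins signal through integrins and other receptors, of which 12 were listed and 10 tested. Of these, 2 were called higher and 0 lower, 3 had an unadjusted p under 0.05, and the median log2 fold change was 0.30. The integrin subunit Itgb3 had 241, 945, 457 and 693 normalized counts in Control and 3337, 1015, 4900.5 and 4764 in Notch3IC (2.59 ± 0.56, adjusted p = 0.0456), with Set 2 nearly level at a log2 ratio of 0.10. Itgb5 had 2176, 2396, 2034 and 1777 in Control and 6599, 3091, 9194 and 7361 in Notch3IC (1.65 ± 0.29, adjusted p = 0.0287), again with the smallest ratio in Set 2 (0.37). Itgb1, the most abundant of the list per kilobase, was at 0.14 ± 0.24 (adjusted p = 0.821). The calls of Fat4, Tgfb2 and Itgb5 were lost without Control Set 3 or Control Set 4, that of Rbms3 without Control Set 3, and that of Itgb3 without any 1 of the 4 libraries of Sets 3 and 4.

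Set 1 was the highest or the lowest set in both conditions for many of these genes, as it was for many of all genes tested. Its 2 libraries were each the highest of their condition for 6 of the 10 genes (Yap1, Amotl2, Ctgf, Cyr61, Wisp1 and Wisp2) and each the lowest for Wwtr1, beside 28.2% and 24.4% of all genes tested. Of 14 actin and serum response factor (SRF) target genes tested, the Set 1 libraries were highest in both conditions for 12 (85.7%) and lowest for 0. Of the 22 Yap and Taz targets they were highest for 8 (36.4%) and lowest for 1 (4.55%). The smooth muscle actin-binding gene Tagln, for instance, had 2009.7 normalized counts in Control Set 1 and 95.9 to 386 in the other Control sets, and 4112 in Notch3IC Set 1 and 347 to 505 in the others. None of the 14 was called by edgeR between conditions and 0 had an unadjusted p under 0.05, although 13 had a positive log2 fold change (median 0.29). With the set number as a block 4 of the 14, Acta2, Actg2, Cnn1 and Tagln, were called higher. Actb, the most abundant of them per kilobase, was at 0.17 ± 0.23.

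**Figure D4:**
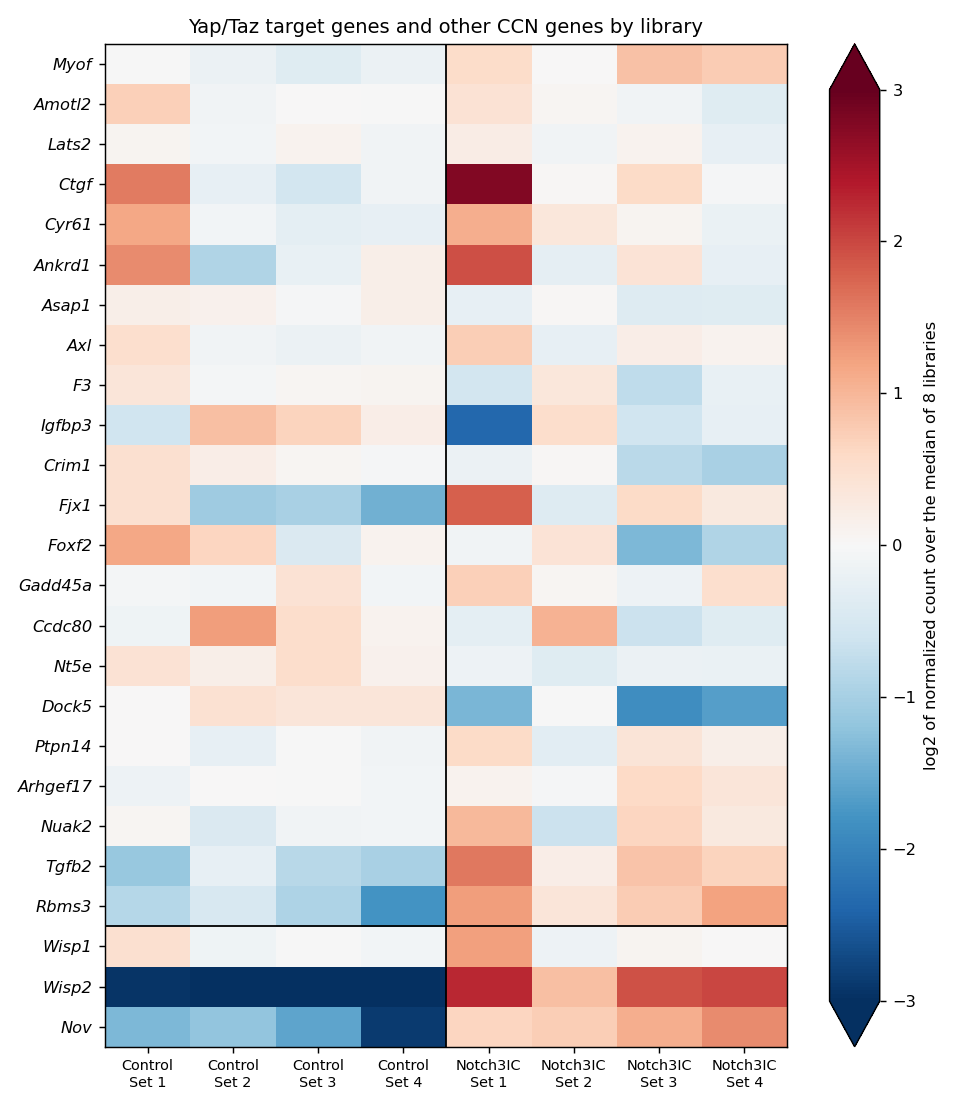
log2 of the normalized count of each gene over its median of the 8 libraries (0.5 added to each value), for the 22 Yap and Taz target genes (above the line) and for Wisp1, Wisp2 and Nov, in 4 Control and 4 Notch3IC libraries. Ctgf, Cyr61 and Ankrd1 are highest in the 2 Set 1 libraries, whereas Wisp2, Nov, Rbms3 and Tgfb2 separate the conditions; the colour scale ends at 3 in size.

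Marker genes of the cell types that a culture of this kind could hold were read beside these results. Of 10 ovarian surface epithelium and mesothelium markers, 9 were tested, 2 were called lower (Msln -2.60 ± 0.63, adjusted p = 0.0625, and Upk1b -2.19 ± 0.56, adjusted p = 0.0762) and 9 of 9 had a negative log2 fold change (median -1.64). Their summed normalized counts came to 25732, 50742, 79198 and 74846 in Control Sets 1 to 4 and to 7530.4, 31972, 26790 and 20721 in Notch3IC, so Set 1 was lowest in both conditions, and Upk3b was the most abundant per kilobase. Of 7 epithelial markers only Cdh1 was tested (-0.48 ± 0.65), and the defining marker Epcam had 2.24 to 9.51 normalized counts per library. The 7 summed to 132 to 657 in Control and to 71.5 to 532 in Notch3IC. Of 8 fibroblast and mural markers, 5 were tested and 2 called higher, Pdgfrb (5.99 ± 0.83) and Cspg4 (4.20 ± 0.57, both with adjusted p = 0.0169). Of the 5, 4 had a positive log2 fold change and 1, the abundant fibroblast gene Dcn, a negative one (-0.47 ± 0.76, adjusted p = 0.809), lower in 4 of 4 sets. Their summed counts came to 143462, 106372, 80384 and 64679 in Control and to 271127, 133114, 168356 and 203307 in Notch3IC, most of it Col1a1. Pdgfrb had 94.1, 205, 33.5 and 29.3 normalized counts in Control and 3469.6, 1838, 7745 and 9508 in Notch3IC, a pattern over the Control sets that Wisp2 shared, with Sets 1 and 2 above Sets 3 and 4. The mural marker Rgs5, not tested at these low counts, had 0.99, 2.39, 2.87 and 3.17 normalized counts in Control and 20.1, 4.39, 62.5 and 50.7 in Notch3IC, higher in 4 of 4 sets with no overlap between the conditions. Des, also not tested, had 1.58 to 13.1 in Control and 6.75 to 15.6 in Notch3IC, with overlap. The part of these markers in the difference of Wisp2 and of the other genes was not tested, and fewer cells of a type and less RNA per cell cannot be told apart in bulk RNA. Of 8 leukocyte markers 2 were tested and Csf1r was called higher (1.52 ± 0.38, adjusted p = 0.0719) at 6.70 to 11.9 normalized counts in Control and 14.6 to 40.2 in Notch3IC, while Cd3e and Emr1 were at 0 in each library, Ptprc at 2.24 or less, and Cd68 was the most abundant. Summed over the 8, the leukocyte markers held 56.5 to 128 normalized counts in Control and 82.0 to 121 in Notch3IC. Of 6 endothelial markers 2 were tested and 0 called by edgeR, with 0 at an unadjusted p under 0.05, and their sum was 12.7 to 38.2 normalized counts in Control and 28.5 to 50.3 in Notch3IC, with Pecam1 the most abundant. Leaving out 1 library kept the call of Csf1r in 2 of 8 cases, of Msln in 4 of 8 and of Upk1b in 3 of 8. It kept those of Pdgfrb and Cspg4 in 8 of 8. The log2 fold changes then ran from 1.20 to 1.69 for Csf1r, -3.17 to -2.27 for Msln and -2.92 to -1.89 for Upk1b. Those of Pdgfrb ran from 5.62 to 6.76 and those of Cspg4 from 3.93 to 4.49. With a whole set left out, adjusted p rose as far as 0.221 for Pdgfrb and for Cspg4, which ended both calls.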

How the data were processed

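The deposited files hold 1 table of raw read counts per gene symbol for each of 8 libraries. Per the labels and the study's methods, the authors sequenced polyadenylated RNA as single-end reads, aligned them with TopHat, obtained reads per gene with Cufflinks and compared the groups with DESeq. The submitters' processing notes name the mm9 build, while tool versions and the use of strand in counting are not given in the sources used here.

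Counts as deposited were tested with edgeR 4.0.16 (TMM, filterByExpr by condition, robust quasi-likelihood fit, condition alone, R 4.3.3) over 12430 of 23284 genes. The thresholds are those of the study's methods (adjusted p under 0.1, log2 fold change of 1 or more in size), which state no set term. SE is the log2 fold change over the root of its F, and intervals are at 95%. Each condition has 4 lines of 1 parental line, 1 library each, so p-values measure the spread between infected lines. Depth of 15524262 to 28208072 counts per library leaves genes of a few counts, such as Wisp3, outside the test. Within-set log2 ratios used a pseudocount of 0.5 and carry no test. Exon lengths and positions are from GENCODE M21 (GRCm38), matched by symbol or synonym. Promoters are RefSeq windows (GRCm38.p6).

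Same-numbered Control and Notch3IC lines are matched sets by the methods, and their deviations from the condition means correlated at 0.398 to 0.804, against -0.501 to 0.372 between different sets, so the set number was used as a block in 1 alternative. The common biological coefficient of variation was 26.3% without the block and 14.1% with it. DESeq2 1.42.0, other scalings, filters and thresholds and left-out libraries and sets were further alternatives. The test was checked on simulated data.

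The members and gene lists were chosen with earlier results of these data known. Genes were named by rule: the members, the called genes of each list, its most abundant gene per kilobase, the whole CCN, Yap, Taz, Tead and Vgll lists, Notch3, Hey1, Heyl and Nrarp, and the 3 genes most like Wisp2 and like Ctgf. Outside the rule, and named after their values were seen, were genes called only under an alternative, the genes so marked in the text, and the markers Dcn, Epcam, Rgs5, Des, Ptprc, Cd3e and Emr1. The values of 1 list gene are not reported here.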

Additional observations from a re-analysis of the deposited data

Results flagged for a closer look

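Single libraries were compared with the other 3 of their condition over 60 groups of 4 libraries, and 9 lay further from the rest than Dixon's limit of 0.829 of the range. Chance flags about 1 in 20 independent groups, which is 3 of 60. These groups share the same libraries and are not independent, so 3 is no strict expectation for them. Of the 9, 7 were Set 1 libraries. In Control Set 1, Amotl2 had 11815 normalized counts (6719 to 7236 in the others), Ctgf 2242 (522 to 707), Cyr61 10926 (4000.5 to 4601) and Wisp1 11043 (7230.1 to 7788). In Notch3IC Set 1, Ctgf had 5207 (746 to 1128), Wisp1 18575 (7047 to 8341) and the Tead cofactor gene Vgll3 2851 (785 to 1068). Outside Set 1, Notch3 had 70.8 in Control Set 3 (38.6 to 42.0), and Fat4 had 89.5 in Control Set 2 (43.6 to 49.7).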

How the results depend on the processing

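Of the alternative values for the 10 genes, 183 kept their direction and side of the threshold, 4 lost a call and 21 changed sign, and 1, Ctgf with DESeq2, had no adjusted p. The 4 were Wisp2 and Nov without Set 3 or Set 4. No call was made with a changed sign. The alternatives that changed only a threshold reused the main log2 fold changes, so their values, counted here too, could not change sign. With library totals alone Wwtr1 turned to -0.015 and Lats2 to -0.030, and Lats2 turned to -0.0078 with RLE scaling and to -0.011 with DESeq2. Leaving out 1 library or 1 set gave -0.088 to 0.13 for Wwtr1, -0.067 to 0.086 for Lats2, -0.31 to 0.065 for Amotl2, -0.21 to 1.65 for Ctgf, -0.17 to 0.62 for Cyr61 and -0.10 to 0.48 for Wisp1 (log2 fold changes). The cause was not tested.

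Genes called higher and lower numbered 707 and 192 with DESeq2 and 645 and 315 with the set number as a replicate block, which uses the pairing of the lines. The block left the calls of Wisp2 (6.25, adjusted p = 0.0255) and Nov (2.69, adjusted p = 0.0275) in place and changed no call of the other members, Ctgf included, or of the 9 list genes called without it. With adjusted p under 0.05, 48 genes were lower, and with no fold-change limit 210. With 1 library left out, 75 to 702 genes were higher and 8 to 305 lower, the fewest without Control Set 3 (75 and 8) and Control Set 4 (99 and 11). Without Notch3IC Set 3 they were 201 and 29, without Notch3IC Set 4 155 and 16, and without Notch3IC Set 2 702 and 305. With a set left out, the counts were 0 to 670 higher and 0 to 229 lower. Without Set 3 edgeR called 1 and 0 genes and without Set 4 0 and 0, with 1101 and 1011 genes at an unadjusted p under 0.05. Of the 10 members, 1 was called when each library had to hold at least 10 counts, and 0 to 2 with a library or set left out. Of the list genes, 13 were called higher with the block and 0 to 10 with a library or set left out. Called lower were 2 with DESeq2, 2 with no expression filter, 3 with the block, 0 with adjusted p under 0.05, 3 with no fold-change limit, and 0 to 3 with a library or set left out. The median over all genes tested ran, on the log2 scale, from -0.04 to 0.02 over these settings. Low counts limit Nov in Control (7 to 17 per library) and leave Wisp3 (3 to 12) untested. The comparison of CCN protein sequences was not run.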

Other observations

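Over the 8 libraries, the genes whose log2 CPM ran closest to that of Wisp2 were Fam53b (Pearson r 0.989), Peg13 (0.984) and Sh3bgrl3 (0.982). These values describe 8 libraries in which the 2 conditions differ, and they carry no test. The genes were picked by this r, so an order of libraries shared with Wisp2 or Ctgf follows from the choice. Fam53b had 103, 109, 69.8 and 66.6 normalized counts in Control Sets 1 to 4 and 205, 169.9, 221 and 241 in Notch3IC, which, as for Wisp2, put Control Sets 1 and 2 above Sets 3 and 4 and Notch3IC Set 2 lowest in its condition. The genes closest to Ctgf were Api5 (0.987), E2f3 (0.987) and Socs7 (0.985), each highest in the Set 1 libraries. Socs7 had 1599 normalized counts in Control Set 1 and 1249 to 1273 in the other Control sets, a narrower spread than that of Ctgf.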
